A study of Mus musculus with 4 samples.

Results

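Oxidative phosphorylation subunits were taken as every probe set whose platform annotation names exactly 1 gene and whose symbol starts with Nduf, Uqcr, Cox4 to Cox8 or Atp5, or is Sdha, Sdhb, Sdhc or Sdhd. The rule gave 179 of the 45101 probe sets on the array and 90 of the 18194 genes with a single-symbol probe set. They comprise 88 probe sets of complex I (44 genes), 9 of complex II (4 genes), 16 of complex III (8 genes), 35 of complex IV (17 genes) and 31 of complex V (17 genes). The rule did not use any measured value. A further 10 probe sets carry one of these symbols beside that of another gene, such as the probe set shared by Ndufs6 and Ndufs6b, and are not counted among the members.

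The livers came from male C57BL/6J mice that were 8 to 12 weeks old when they were put on a diet for 20 weeks. The 4 groups were a high-fat diet with clodronate liposomes, a high-fat diet with PBS, a low-fat diet with clodronate liposomes and a low-fat diet with PBS. The high-fat diet gave 45 and the low-fat diet 10 energy percent as fat, and in all groups palm oil stood in for lard. The 2 intraperitoneal injections of clodronate liposomes, an agent taken up by phagocytes that depletes them, or of PBS without liposomes, fell in the last week of feeding. RNA of 10 mice in each high-fat group and of 8 mice in each low-fat group was pooled in equal amounts, 36 mice in all, so each group is 1 Affymetrix array with no spread between animals. Because the control injection held no liposomes, an effect of the liposome itself and of clodronate cannot be told apart.

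Complexes I to IV of the inner mitochondrial membrane pass electrons from NADH and succinate to oxygen, and complexes I, III and IV pump protons as they do so. Complex V, the ATP synthase, lets the protons flow back and makes ATP. In the liver this machinery oxidises what the breakdown of fatty acids delivers, and most of its subunits are encoded in the nucleus; the subunits encoded in mitochondrial DNA are outside the rule.

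Values were log2 expression levels, and probe sets were analysed when they reached 4 on at least 1 array, a working limit and not a detection call. That held for 146 member probe sets of 80 genes, of which 142 reached 4 on all 4 arrays and 4 on some arrays only. The other 33 member probe sets stayed below 4 on all 4 arrays. For 10 genes there was no other member probe set: Cox4i2, Cox6a2, Cox6b2, Cox7b2, Cox7c, Cox8b, Cox8c, Ndufa4l2, Ndufb1 and Ndufb4. A level below 4 on these probe sets does not show that a gene is absent from the liver. Probe sets that Ndufb4 shares with Ndufb4b and Ndufb4c, which are not members, reached 11.33 and 11.08. For the differences between 2 arrays, values below 4 were set to 4. Levels of the well-measured members lay in a common range on the 4 arrays, with member medians of 10.95 on the high-fat clodronate array, 11.03 on the high-fat PBS array, 11.08 on the low-fat clodronate array and 11.04 on the low-fat PBS array. Hepatocyte markers were at 4 or more for 9 of 9 genes on every array, with summed levels between 16.90 and 16.95. Kupffer cell markers had summed log2 levels of 8.38 (high-fat clodronate), 12.60 (high-fat PBS), 8.00 (low-fat clodronate) and 12.72 (low-fat PBS), and 4 of the 12 genes were at 4 or more with high-fat clodronate, 10 with high-fat PBS, 3 with low-fat clodronate and 12 with low-fat PBS. The resident macrophage marker Clec4f read 1.88 and 1.92 on the high-fat and low-fat clodronate arrays, against 9.42 and 9.40 on the matching PBS arrays. In such bulk liver RNA, fewer cells of a type and less RNA per cell cannot be told apart, and the part of the lost macrophage RNA in the small differences below was not tested.

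The subunits differed little between the arrays. After clodronate, the median difference from PBS over the 146 member probe sets was 0.027 log2 on the low-fat diet, where all 16298 probe sets analysed had a median of 0.046, and it was -0.020 when the arrays were centred. On the high-fat diet the clodronate minus PBS median was -0.057 for the members and -0.042 for all probe sets, and with centred arrays the member median was 0.010. High-fat against low-fat feeding gave a member median of -0.004 in PBS-injected mice (0.0 for all probe sets; -0.004 with centred arrays). In clodronate-injected mice the diet difference had a member median of -0.087 against -0.085 for all probe sets, and 0.030 with centred arrays. In each of the 4 pairs the member median lay within 0.02 log2 of that of all probe sets in this setting, and in 3 of them its sign turned when the arrays were centred.

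Changes of 1.2-fold (0.263 log2) or more were few among the members. Clodronate on the low-fat diet gave 4 member probe sets higher by that margin, against 15.2% of all probe sets, and 1 lower, against 6.83%. On the high-fat diet it gave 2 higher, where 6.18% of all probe sets were, and 2 lower, where 15.3% were. The high-fat diet gave 3 higher (12.9% of all probe sets) and 1 lower (10.4%) with PBS, and 4 higher (7.67%) and 4 lower (23.9%) with clodronate. At 1.5-fold the only member was Cox7a1, lower for clodronate on the low-fat diet (1.38% of all probe sets lower) and for diet with PBS (1.53% lower). In the other directions and pairs 0 members reached 1.5-fold. The shares of all probe sets there were 2.44% higher for clodronate on the low-fat diet, 0.718% higher and 2.95% lower for clodronate on the high-fat diet, 2.32% higher for diet with PBS, and 1.66% higher and 5.71% lower for diet with clodronate. None of the 146 differed by 2-fold or more in any pair. Of all probe sets, 0.252% were higher and 0.515% lower at 2-fold for clodronate on the low-fat diet, 0.11% and 0.657% for clodronate on the high-fat diet, 0.362% and 0.27% for diet with PBS, and 0.38% and 0.853% for diet with clodronate. In either direction, 1.2-fold was reached by 22%, 21.5%, 23.3% and 31.6% of all probe sets in the 4 comparisons as listed. The share of members that stayed within 1.2-fold was 96.6%, 97.3%, 97.3% and 94.5% in those 4 comparisons, and the share of all probe sets was 78.0%, 78.5%, 76.7% and 68.4%. With 1 array per group these are descriptions of these arrays and carry no test.

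**Figure D1:**
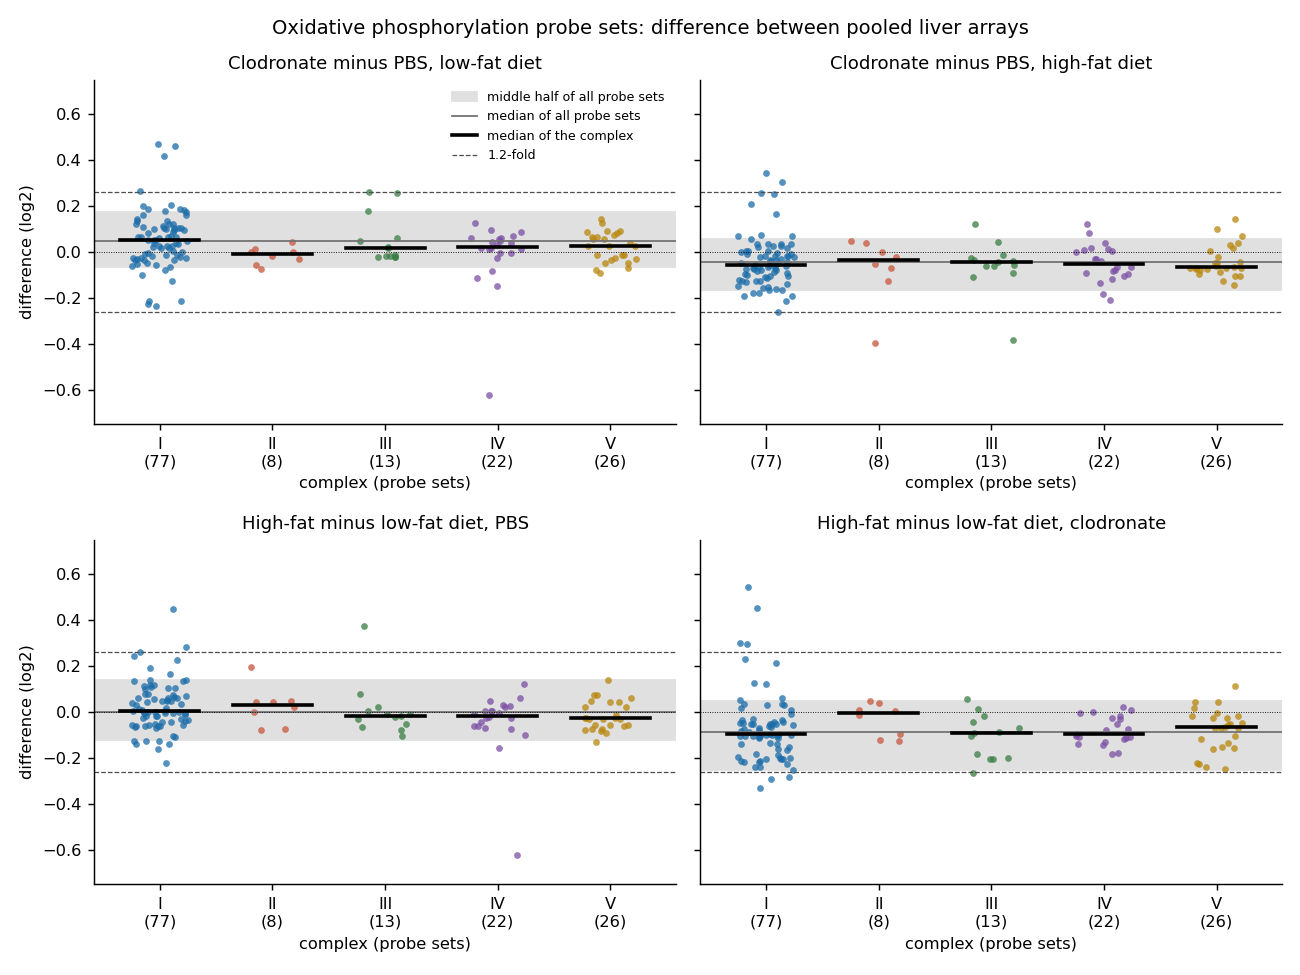
Each point is 1 member probe set, placed by complex (horizontal axis, number of probe sets in brackets) and by its difference between 2 pooled arrays (vertical axis, log2), with 1 panel for each pair of arrays. Black bars are the medians of each complex, the grey line and band are the median and the interquartile range of all 16298 probe sets, and the dashed lines mark 1.2-fold; most points lie between the dashed lines in every panel.

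Averaged over both diets or both injections, no member passed the test. In an additive limma model of diet and injection over the 4 arrays, 0 of 146 members were called for clodronate at a Benjamini-Hochberg adjusted p under 0.05, where 0.442% of all probe sets were called lower and 0.0123% higher. For the high-fat diet 0 of 146 members were called, where 0.178% of all probe sets were called lower and 0.147% higher. With such shares, 0 calls among 146 members is near the background for both effects. At an unadjusted p under 0.05 the model gave 0 members for clodronate, against 3.82% of all probe sets, and 3 members for diet, against 10.7%. Without the mean-dependent prior, limma also called 0 members and gave 1 and 2 members at that unadjusted level. The smallest adjusted p among the members was 1 for clodronate and 0.429 for diet.

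The 3 members with an unadjusted p under 0.05 for diet were chosen for that value. Ndufa8, an accessory subunit of complex I, had a mean diet difference of -0.20 log2 (95% interval -0.38 to -0.024, limma adjusted p = 0.429). Its levels were 10.69 on both high-fat arrays, against 10.93 and 10.85 on the low-fat clodronate and low-fat PBS arrays. Both high-fat values were thus the low ones. Atp5g1, which encodes the c subunit of the ATP synthase rotor, had -0.18 log2 (-0.36 to -0.012, limma adjusted p = 0.448), with levels of 10.99 and 11.12 on the high-fat clodronate and PBS arrays, against 11.23 and 11.25 on the low-fat ones. Cox7a1, described with its isoforms below, had -0.57 log2 (-1.09 to -0.054, limma adjusted p = 0.434), but it was below 4 on 3 of the 4 arrays. With values below 4 set to 4 its mean diet difference was -0.31 log2, so its size and interval rest on values under the working limit.

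The intervals bound how large an averaged change could be within this model. The 95% interval lay wholly within 1.5-fold in either direction for 138 of 146 members (94.5%) for each effect, where 67.7% of all probe sets met that for clodronate and 60.4% for diet. It lay within 1.2-fold for 107 members for clodronate and for 98 for diet, and within 2-fold for 145 for each. Members had higher levels, with medians of 10.95 to 11.08 on the 4 arrays, against 6.83 to 6.95 for all probe sets analysed. The prior depends on the mean level, and the median half-width was 0.177 log2 for members and 0.379 for all probe sets. These shares were not compared at matched level, so the narrower intervals cannot be assigned to the members as such. The model has 1 residual degree of freedom, set by how far the clodronate difference on one diet departs from that on the other, and it borrows the rest of its error estimate from all probe sets (median prior of 4.90 degrees of freedom). The intervals therefore hold no spread between mice.

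**Figure D2:**
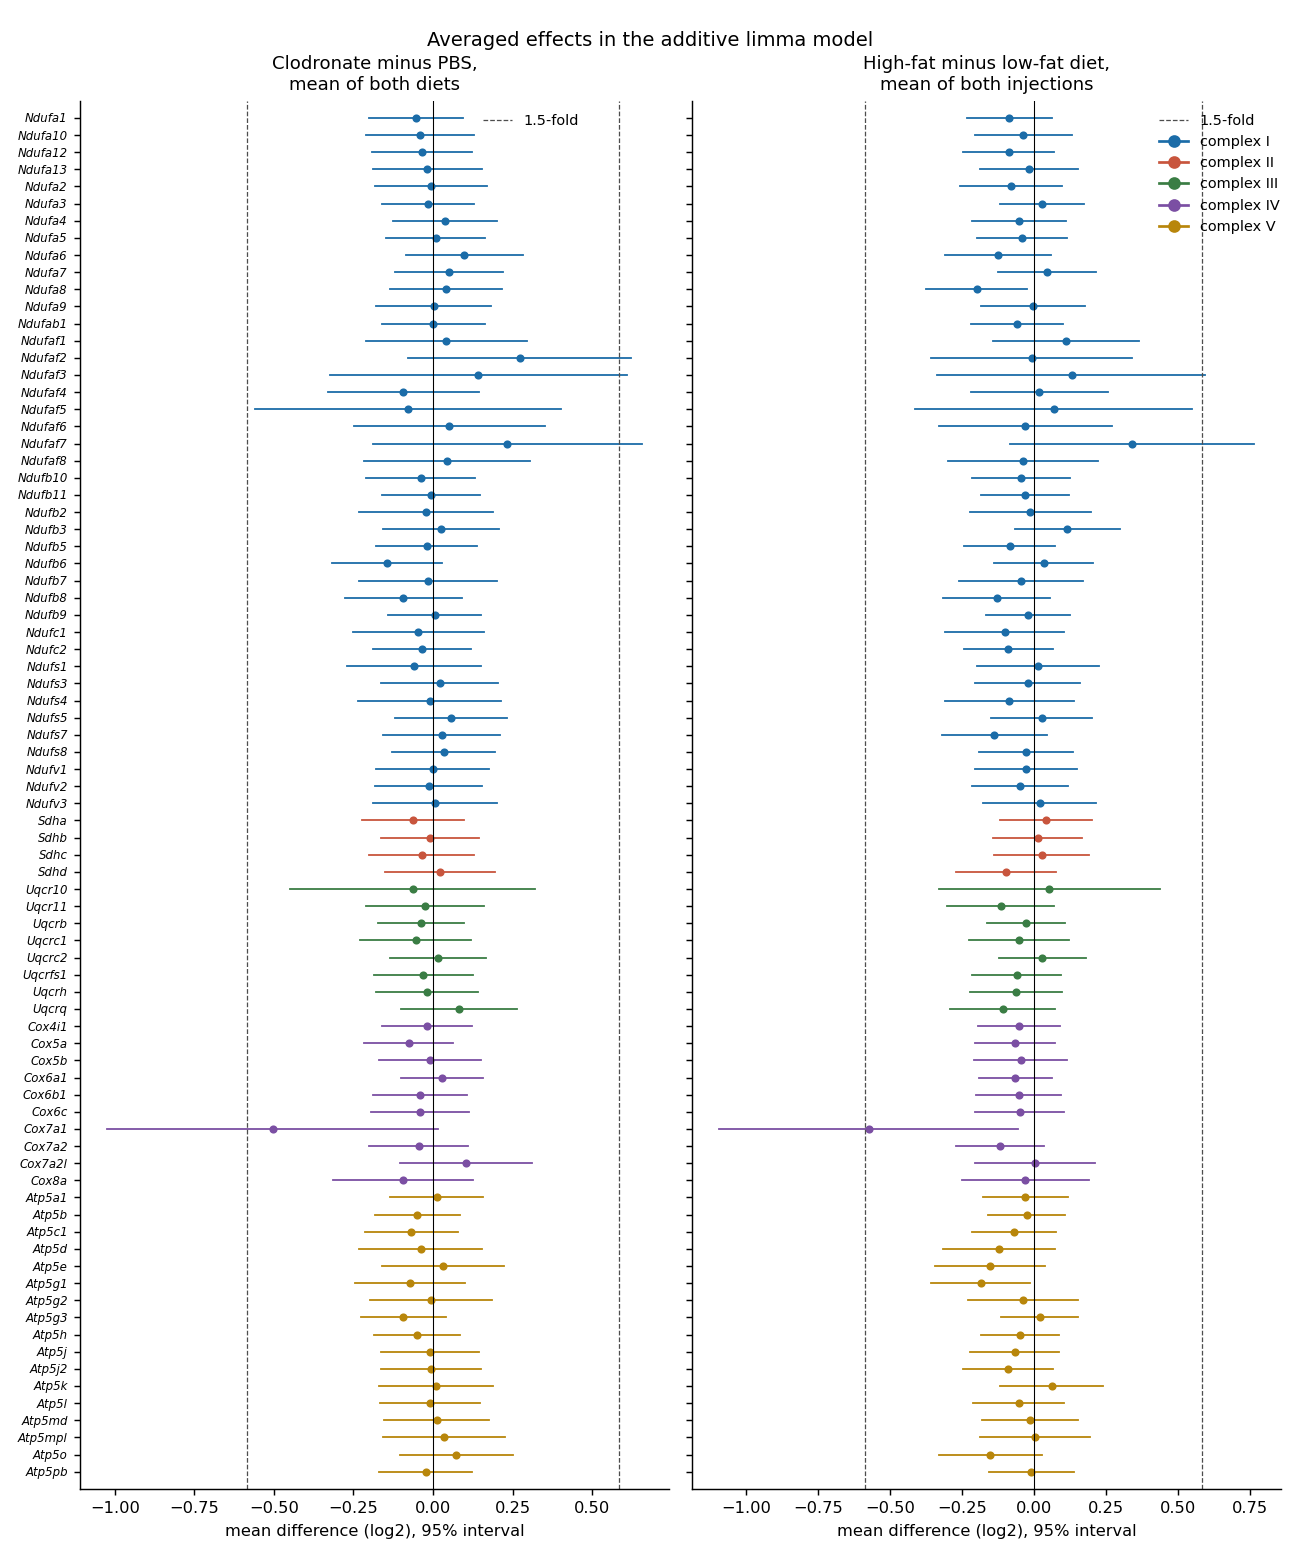
For each of the 80 member genes at 4 or more, the probe set with the highest mean is drawn with its averaged difference (point, log2) and 95% limma interval (line), clodronate minus PBS on the left and high-fat minus low-fat on the right, coloured by complex. Dashed lines mark 1.5-fold; the widest intervals are those of Cox7a1, Ndufaf3, Ndufaf5 and Ndufaf7, and 3 intervals for diet, of Ndufa8, Cox7a1 and Atp5g1, leave out 0.

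Complex I takes electrons from NADH, and its catalytic core was measured by 15 probe sets of 6 genes. Ndufv1, which binds NADH, read 11.16 (high-fat clodronate), 11.23 (high-fat PBS), 11.26 (low-fat clodronate) and 11.19 (low-fat PBS) by its probe set with the highest mean. Ndufs1, the large iron-sulphur subunit, read 10.05 and 10.20 on the high-fat clodronate and PBS arrays, against 10.13 and 10.09 on the low-fat clodronate and PBS arrays. Ndufs3, of the arm that passes electrons to ubiquinone, read 11.10 and 11.16 on the high-fat clodronate and PBS arrays and 11.21 and 11.10 on the low-fat clodronate and PBS arrays. By these 3 probe sets the high-fat clodronate array lay below the high-fat PBS array and the low-fat clodronate array above the low-fat PBS array, by amounts under 1.2-fold. The other 2 Ndufv1 probe sets differed by -0.012 and -0.028 log2 after clodronate on the low-fat diet and by -0.10 and -0.021 on the high-fat diet. Of the 15 core probe sets, 10 were above 0 after clodronate on the low-fat diet (median 0.067) and 14 were below 0 on the high-fat diet (median -0.063). In all probe sets, 60.3% were above 0 in the first comparison and 59.7% below 0 in the second. The high-fat minus low-fat difference of the core had medians of 0.005 with PBS and -0.10 with clodronate, with 0 probe sets at 1.2-fold in any pair.

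The accessory subunits of complex I surround the core and stabilise it. Their 52 probe sets of 27 genes had a clodronate minus PBS median of 0.050 under low-fat and -0.037 under high-fat feeding. Their high-fat minus low-fat medians were 0.001 with PBS and -0.075 with clodronate. These probe sets were assigned by gene symbol and include Ndufa4, which an alternative setting put to complex IV. Ndufa9, which lies near the ubiquinone site, read 10.93 (high-fat clodronate), 10.86 (high-fat PBS), 10.87 (low-fat clodronate) and 10.93 (low-fat PBS). Ndufb8, a subunit of the membrane arm often used as a marker of assembled complex I, read 10.76 and 10.93 on the high-fat clodronate and PBS arrays, against 10.97 and 10.99 on the low-fat clodronate and PBS arrays, so its lowest value was on the high-fat clodronate array. The lowest difference after clodronate on the low-fat diet was that of a probe set of Ndufb6, at -0.23 log2, with levels of 11.98 on the clodronate array and 12.21 on the PBS array. The other Ndufb6 probe set differed by -0.036 log2 between the same arrays.

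Assembly factors, which build complex I but are no part of the finished enzyme, gave the highest clodronate differences of complex I on either diet, and also the lowest one on the high-fat diet. Ndufaf2 read 7.91 on the low-fat clodronate array against 7.44 on the low-fat PBS array, a difference of 0.47 log2 or 1.38-fold. On the high-fat diet it read 7.71 with clodronate and 7.63 with PBS, a difference of 0.074. Ndufaf3 read 7.11 with clodronate and 6.65 with PBS on the low-fat diet (0.46 log2), and 6.92 with clodronate and 7.10 with PBS on the high-fat diet (-0.18 log2). The low-fat PBS array was thus the lowest of the 4 for both genes. Ndufaf7, a methyltransferase that modifies a core subunit, read 6.22 with clodronate and 5.87 with PBS on the high-fat diet, and 5.77 with clodronate and 5.64 with PBS on the low-fat diet. Its high-fat clodronate value was the highest of the 4, by 0.45 log2 over the low-fat clodronate array. Averaged over both diets, the clodronate effect was 0.27 log2 for Ndufaf2 (95% interval -0.079 to 0.62), 0.14 for Ndufaf3 (-0.32 to 0.61) and 0.23 for Ndufaf7 (-0.19 to 0.66), each with a limma adjusted p of 1. Ndufaf1 read 9.16 with clodronate and 9.0 with PBS on the high-fat diet, against 8.93 and 9.01 on the low-fat diet. Ndufaf4 had the lowest difference, -0.26 log2 on the high-fat diet, with 8.15 on the clodronate and 8.42 on the PBS array. Its other probe set differed by -0.057 log2 there. Over all 10 assembly factor probe sets of 8 genes, 7 were above 0 after clodronate on the low-fat diet, where 60.3% of all probe sets were, and 7 below 0 on the high-fat diet, where 59.7% were. These shares are near the background.

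Complex II, the succinate dehydrogenase shared with the citric acid cycle, showed small differences between the arrays. Sdha, the flavoprotein that oxidises succinate, read 11.31 (high-fat clodronate), 11.38 (high-fat PBS), 11.27 (low-fat clodronate) and 11.33 (low-fat PBS) by its probe set with the highest mean. Sdhb, the iron-sulphur subunit, read 11.69 and 11.71 on the high-fat clodronate and PBS arrays, against 11.69 and 11.69 on the low-fat clodronate and PBS arrays, a span of 0.023 log2 over the 4 arrays. The membrane anchors Sdhc and Sdhd read 11.08 and 10.69 on the high-fat clodronate array, 11.13 and 10.69 on the high-fat PBS array, 11.07 and 10.81 on the low-fat clodronate array, and 11.09 and 10.76 on the low-fat PBS array. A second Sdhc probe set of the x_at type, which can bind related transcripts, read 7.16 with clodronate against 7.55 with PBS on the high-fat diet, the lowest difference of any member there at -0.40 log2. The main Sdhc probe set differed by -0.053 log2 between the same arrays. The median of the 8 probe sets at 4 or more was -0.036 for clodronate on the high-fat diet and -0.005 for diet with clodronate.

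Complex III passes electrons from ubiquinol to cytochrome c. The core proteins Uqcrc1 and Uqcrc2 read 10.79 and 11.98 on the high-fat clodronate array, 10.88 and 11.94 on the high-fat PBS array, 10.88 and 11.92 on the low-fat clodronate array, and 10.90 and 11.94 on the low-fat PBS array. Uqcrfs1, the Rieske iron-sulphur protein, read 11.52 and 11.56 on the high-fat clodronate and PBS arrays, against 11.59 and 11.61 on the low-fat clodronate and PBS arrays. These 3 catalytic or scaffold genes thus spanned 0.11 log2 or less over the 4 arrays. Uqcr10, a small subunit, was the exception: one of its probe sets read 9.35 with clodronate and 9.74 with PBS on the high-fat diet, against 9.62 with clodronate and 9.36 with PBS on the low-fat diet. Its clodronate difference was -0.39 log2 on the high-fat diet and 0.26 on the low-fat diet. The other 2 Uqcr10 probe sets had clodronate differences of 0.12 and -0.061 log2 on the high-fat diet and of 0.26 and 0.017 log2 on the low-fat diet. One of them thus matched it on the low-fat diet, and neither came near -0.39 log2 on the high-fat diet.

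**Figure D3:**
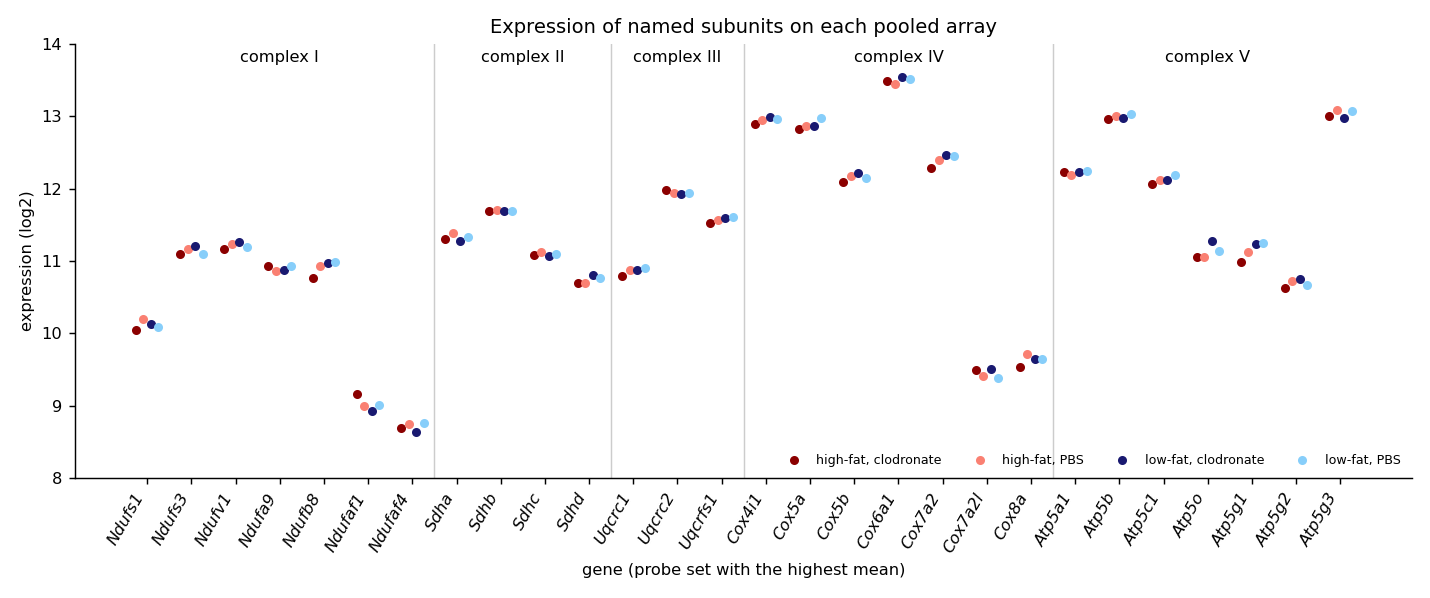
Log2 expression (vertical axis, from 8) of named subunits on each of the 4 pooled arrays, 1 probe set per gene, ordered by complex; colours give diet and injection. The 4 values of a gene lie close together, as for Sdhb with 11.69 to 11.71; heights of different genes come from different probes and are not comparable.

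Complex IV, cytochrome c oxidase, reduces oxygen, and several of its nuclear subunits exist as tissue isoforms. The isoforms used broadly were at 4 or more on every array. Cox4i1 read 12.89 (high-fat clodronate), 12.95 (high-fat PBS), 12.99 (low-fat clodronate) and 12.96 (low-fat PBS), and Cox6a1 read 13.49 and 13.45 on the high-fat clodronate and PBS arrays, against 13.54 and 13.52 on the low-fat clodronate and PBS arrays. By contrast Cox4i2, Cox6a2, Cox6b2, Cox7b2, Cox8b and Cox8c, known from lung, muscle, brown fat or testis, were below 4 on all 4 arrays, with a highest value of 2.53 among them, that of Cox8b on the low-fat clodronate array. Markers of muscle (6 genes) and brown fat (3 genes) were likewise below 4 on every array. Cox7a1, the isoform of heart, skeletal muscle and brown fat, was the only tissue isoform on the list to reach 4, and only on the low-fat PBS array: it read 3.55 (high-fat clodronate), 3.86 (high-fat PBS), 3.93 (low-fat clodronate) and 4.62 (low-fat PBS). Against the limit of 4, it was at least 1.54-fold lower on the low-fat clodronate array and on the high-fat PBS array than on the low-fat PBS array. This difference rests on the value of 1 array.

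The promoters of 2 such isoform pairs are printed to show how they differ in sequence, with CG pairs in capitals and 250 bases before the annotated start, in the direction of the gene. They are RefSeq sequences of mouse build GRCm38.p6. Cox7a2 lies at chr9:79759854-79760103 on the minus strand, Cox7a1 at chr7:30183921-30184170 on the plus strand, Cox8a at chr19:7217617-7217866 on the minus strand and Cox8b at chr7:140900447-140900696 on the minus strand.
Cox7a2: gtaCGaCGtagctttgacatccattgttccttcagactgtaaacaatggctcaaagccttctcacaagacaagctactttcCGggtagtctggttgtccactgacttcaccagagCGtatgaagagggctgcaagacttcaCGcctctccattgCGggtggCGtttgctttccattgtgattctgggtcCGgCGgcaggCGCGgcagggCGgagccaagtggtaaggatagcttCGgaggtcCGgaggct
Cox7a1: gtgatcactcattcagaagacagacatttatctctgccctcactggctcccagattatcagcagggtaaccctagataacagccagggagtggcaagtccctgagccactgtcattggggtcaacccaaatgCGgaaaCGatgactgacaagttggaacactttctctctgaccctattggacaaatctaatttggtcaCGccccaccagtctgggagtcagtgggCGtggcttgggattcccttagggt
Cox8a: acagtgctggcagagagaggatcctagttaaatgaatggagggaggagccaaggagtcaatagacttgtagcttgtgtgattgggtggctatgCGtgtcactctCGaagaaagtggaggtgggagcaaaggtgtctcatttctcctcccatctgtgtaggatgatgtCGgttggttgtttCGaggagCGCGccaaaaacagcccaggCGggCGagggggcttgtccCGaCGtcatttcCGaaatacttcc
Cox8b: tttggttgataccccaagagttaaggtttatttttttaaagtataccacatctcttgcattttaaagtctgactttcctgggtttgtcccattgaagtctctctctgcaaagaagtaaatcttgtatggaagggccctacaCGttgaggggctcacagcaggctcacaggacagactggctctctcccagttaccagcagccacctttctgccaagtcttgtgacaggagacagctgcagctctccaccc
The windows of Cox7a2 and Cox8a, at 4 or more on all arrays, hold 14 and 11 CG pairs. Those of Cox7a1 and Cox8b hold 4 and 1. The contrast is weaker in windows not printed. The tissue isoforms Cox6b2 and Cox7b2, below 4 on all arrays, hold 8 and 9 CG pairs, against 11 in Cox8a. Cox6b1, the counterpart of Cox6b2, holds 14. This is a description of these windows and says nothing of how the genes are controlled.

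**Figure D4:**
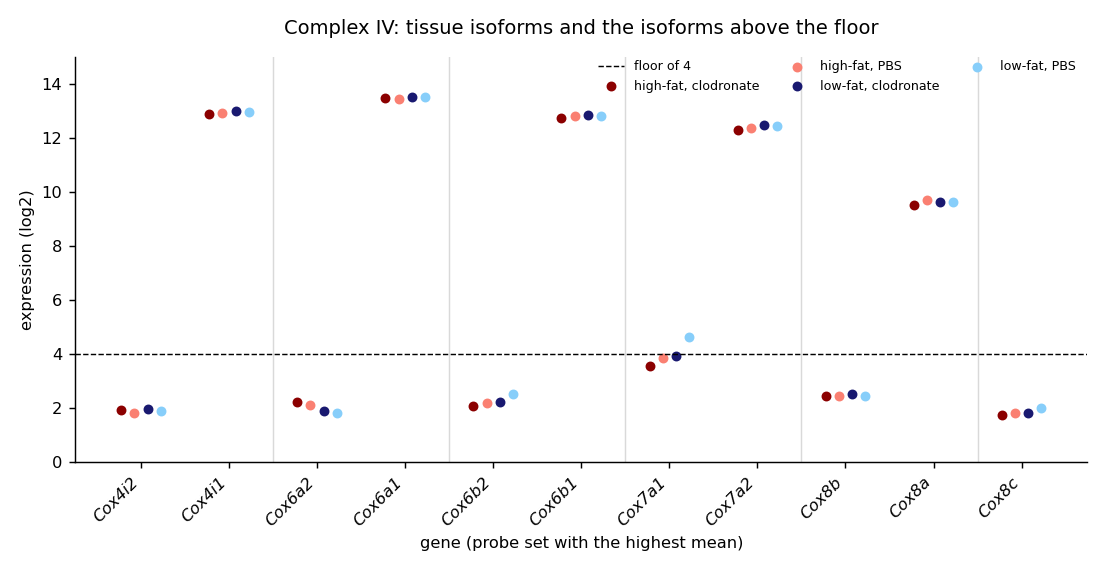
Log2 expression (vertical axis) of complex IV tissue isoforms, each beside the isoform of the same subunit that was at 4 or more on all arrays, with 1 point per pooled array and the working limit of 4 as a dashed line. Cox7a1 crosses the line only on the low-fat PBS array, at 4.62; Cox8c has no counterpart drawn.

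The remaining complex IV subunits differed little. Cox5a read 12.83 (high-fat clodronate), 12.87 (high-fat PBS), 12.86 (low-fat clodronate) and 12.97 (low-fat PBS), and Cox7a2 read 12.29 and 12.39 on the high-fat clodronate and PBS arrays, against 12.47 and 12.45 on the low-fat clodronate and PBS arrays. Cox8a had the lowest clodronate difference of complex IV on the high-fat diet, at -0.21 log2, with 9.51 on the clodronate array and 9.71 on the PBS array. Cox7a2l, which takes part in joining complexes III and IV, had its highest difference after clodronate on the low-fat diet, at 0.12 log2. Of the 21 probe sets outside the tissue isoforms, 19 were below 0 for the high-fat diet with clodronate (median -0.097), where 64.9% of all probe sets were below 0 and where centred arrays gave complex IV as a whole a median of 0.024.

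Complex V has a catalytic F1 head, a rotating c ring and a stalk with membrane subunits. In the head, Atp5b, the catalytic beta subunit, read 12.96 (high-fat clodronate), 13.01 (high-fat PBS), 12.98 (low-fat clodronate) and 13.03 (low-fat PBS). Atp5a1, the alpha subunit, read 12.23 and 12.19 on the high-fat clodronate and PBS arrays, against 12.23 and 12.25 on the low-fat clodronate and PBS arrays by its probe set with the highest mean, and Atp5c1, the gamma subunit of the rotor axle, read 12.06 and 12.12 on the high-fat clodronate and PBS arrays, against 12.12 and 12.19 on the low-fat clodronate and PBS arrays. The arrays differed by 0.14 log2 or less in these 3 genes. Of the 3 genes that encode an identical mature c subunit, Atp5g1 was described above, Atp5g2 read 10.63 and 10.72 on the high-fat clodronate and PBS arrays, against 10.75 and 10.67 on the low-fat clodronate and PBS arrays, and Atp5g3 read 13.00 and 13.09 on the high-fat clodronate and PBS arrays, against 12.98 and 13.07 on the low-fat clodronate and PBS arrays. Their clodronate minus PBS differences on the high-fat diet were -0.13 log2 for Atp5g1, -0.086 for Atp5g2 and -0.095 for Atp5g3, where the median of all probe sets was -0.042. Atp5o, the stalk subunit that confers oligomycin sensitivity, read 11.06 on both high-fat arrays, against 11.28 and 11.14 on the low-fat clodronate and PBS arrays. Atp5e of the head had the lowest diet difference of complex V with clodronate, at -0.25 log2. No complex V probe set reached 1.2-fold in any pair.

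The members that passed 1.2-fold were mostly dim. In at least 1 pair, 14 probe sets of 13 genes reached it, and 13 of these were among the 35 member probe sets with a mean level under 10. In the pairs clodronate on the low-fat diet, clodronate on the high-fat diet, diet with PBS and diet with clodronate, 14.3%, 11.4%, 11.4% and 20% of these dim members reached 1.2-fold, against 24.6%, 24.2%, 25.3% and 34.3% of all probe sets with a mean under 10. Among the 111 with a mean of 10 or more, 1 did, an x_at probe set of Ndufb2 that read 9.81 on the high-fat clodronate array and 10.09 on the low-fat clodronate array. The other Ndufb2 probe set analysed differed by -0.14 log2 between the same arrays. Of all probe sets with a mean of 10 or more, 4.65% (clodronate, low-fat), 3.08% (clodronate, high-fat), 9.63% (diet, PBS) and 13.3% (diet, clodronate) reached 1.2-fold, against 0%, 0%, 0% and 0.901% of the members.

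Several probe sets of a gene did not always give the same sign. Of 42 genes with more than 1 probe set at 4 or more on all arrays, 6 had probe sets of opposite sign that lay 1.2-fold or more apart in at least 1 pair: Ndufab1, Uqcr10, Ndufa12, Ndufc2, Ndufs4 and Ndufaf4. For Ndufab1, the mitochondrial acyl carrier protein, a dim probe set read 5.05 on the high-fat clodronate array and 4.50 on the low-fat clodronate array (0.55 log2), while a bright one read 11.65 and 11.75 (-0.11 log2). The differences of these 6 genes therefore depend on the probe set. The share among all genes with several probe sets was not computed, so 6 of 42 has no background here.

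The clodronate difference ran in opposite directions on the diets for many members, as it did for many other probe sets. Of 146 member probe sets, 71 (48.6%) were above 0 under low-fat and below 0 under high-fat feeding, where 37% of all probe sets were. The high-fat minus low-fat contrast of the clodronate difference had a member median of -0.091 and a median of -0.094 over all probe sets. The 4 arrays allow no test of this contrast, and each of the 2 differences shares its arrays with a diet comparison.

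Other mitochondrial genes, listed beside the members, gave 0 limma calls in each list. They include Cyc1, cytochrome c1 of complex III, whose symbol is outside the rule. Of all probe sets, 0.442% were called lower and 0.0123% higher for clodronate, and 0.178% lower and 0.147% higher for diet. With such shares, 0 calls in lists of this size is near the background. Electron carriers had 7 probe sets analysed, assembly and copper delivery 34, biogenesis regulators 24, the citric acid cycle 22, carriers and uncoupling 20 and the mitochondrial ribosome 113. For carriers and uncoupling, 7 of the 8 genes listed had a single-symbol probe set. The missing gene was Ucp2, the only uncoupling protein on that list, so no uncoupling protein was measured there. Ppargc1a, a coactivator that promotes mitochondrial biogenesis, had a mean diet difference of -0.77 log2 by one probe set (limma adjusted p = 0.251), with 5.41 and 5.16 on the high-fat clodronate and PBS arrays, against 6.03 and 6.08 on the low-fat ones. Its other 4 probe sets had mean diet differences of -0.71 to -0.17 log2. The related coactivator Ppargc1b had 0.89 log2 (limma adjusted p = 0.190), with 6.60 and 6.18 on the high-fat clodronate and PBS arrays, against 5.51 and 5.49 on the low-fat ones. The diet differences of the 2 coactivators thus had opposite signs, and both were named for their size. Citrate synthase (Cs) had -0.37 log2 (limma adjusted p = 0.260), with 9.56 and 9.64 on the high-fat clodronate and PBS arrays, against 10.04 and 9.91 on the low-fat ones. The other 2 Cs probe sets had mean diet differences of -0.31 and -0.13 log2. None of these 3 genes passed the adjusted test.

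Promoters were compared for letters bound by regulators of respiratory genes, since RefSeq gave a window of 300 bases (250 before to 50 after the start) for 74 of the 90 genes, with 79 promoters in all. The letters were TGCGCA for the core of NRF1 sites, CCGGAAG for the ETS site of GABP, AAGATGG for YY1, AAGGTCA for ERR alpha, CCAAT and TATAAA, each on both strands, and no pair of these motifs contains the other. NRF1 letters were in 24.1% of member promoters, 14% of promoters of all genes at 4 or more and 7.76% of all 32851 promoters. GABP letters were in 24.1%, 18.7% and 8.86% of these sets, YY1 letters in 13.9%, 7.43% and 6.34%, and ERR alpha letters in 10.1%, 3.38% and 4.72%. The CCAAT letters were in 41.8%, 37.7% and 37.4%, and the TATA letters in 11.4%, 7.47% and 13.6%. At least 1 of the first 4 motifs was in 53.2% of member promoters, 36.9% of those of all genes at 4 or more and 24.5% of all. Member promoters held a median of 20 CG pairs, those of all genes at 4 or more 21 and all promoters 7. A match is a description of letters and not a bound site, and no test was made.

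Windows of 2 members with NRF1 letters are printed as examples, with the matches to NRF1 or GABP letters in capitals and 250 bases before the start. Cox6a1 lies at chr5:115348959-115349208 on the minus strand and Cox5b at chr1:36691237-36691486 on the plus strand (RefSeq, GRCm38.p6).
Cox6a1: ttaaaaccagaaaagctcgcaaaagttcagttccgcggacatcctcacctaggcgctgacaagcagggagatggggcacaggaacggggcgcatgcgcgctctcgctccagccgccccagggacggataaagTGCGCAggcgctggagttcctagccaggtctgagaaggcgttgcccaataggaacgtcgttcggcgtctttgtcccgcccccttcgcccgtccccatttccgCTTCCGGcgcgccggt
Cox5b: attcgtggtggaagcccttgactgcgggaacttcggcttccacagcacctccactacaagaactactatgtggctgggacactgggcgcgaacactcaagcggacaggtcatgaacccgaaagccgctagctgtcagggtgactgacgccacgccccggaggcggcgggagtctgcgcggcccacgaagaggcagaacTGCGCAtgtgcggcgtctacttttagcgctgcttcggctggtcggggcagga
Cox6a1 holds both motifs, the GABP letters on the opposite strand, and Cox5b holds the NRF1 letters only. Both genes were at 4 or more on all arrays and stayed within 1.2-fold in all 4 pairs: Cox5b read 12.09 (high-fat clodronate), 12.17 (high-fat PBS), 12.21 (low-fat clodronate) and 12.15 (low-fat PBS).

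**Figure D5:**
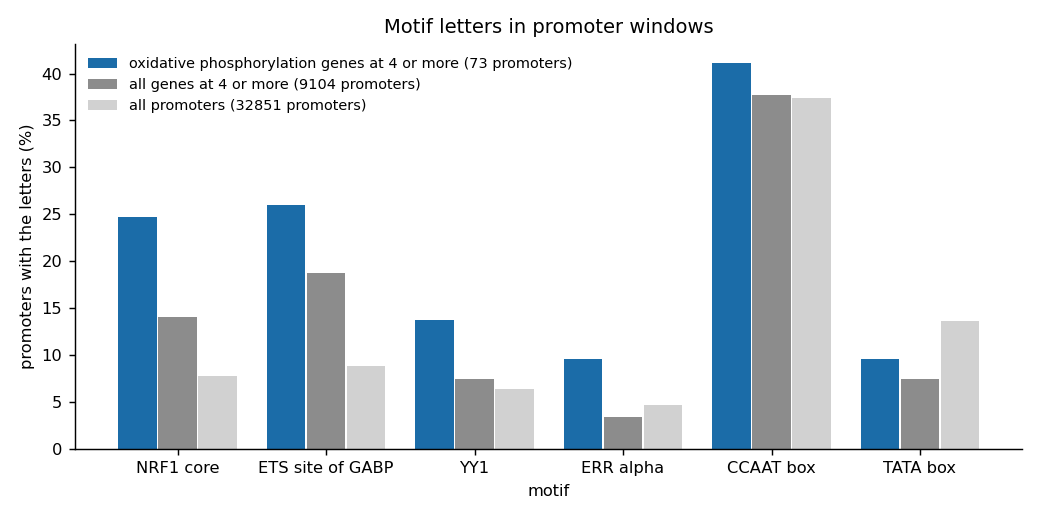
Share of promoter windows (vertical axis, percent) that hold the letters of each motif (horizontal axis) on either strand, for the 73 promoters of member genes at 4 or more, for 9104 promoters of all genes at 4 or more and for all 32851 promoters. Bars start at 0; the NRF1 letters were in 24.7% of the first set, against 14% and 7.76% of the others.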

How the data were processed

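Liver RNA was pooled per group (4 groups, 36 mice) and each pool was hybridised to 1 Affymetrix array from 5 µg of RNA with an integrity number above 8.0, per the labels' protocols. The authors deposited log2 expression values per probe set, which per the submitters' processing notes come from GCRMA 2.24.1, and nothing in the sources used here gives further settings. The precision is limited by the number of arrays. Gene names came from the platform annotation, in which 34958 probe sets had 1 symbol, 932 several and 9211 none, and all 179 member probe sets matched RefSeq by gene identifier with 0 symbols changed.

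Values below 4 were set to 4 for differences between arrays, and probe sets under 4 on all arrays were left out (16298 kept). An additive model of diet and injection was fitted to the values as deposited with limma 3.58.1 in R 4.3.3 (eBayes with a mean-dependent prior, Benjamini-Hochberg over all 16298, adjusted p under 0.05), after the script was tested on simulated data. Tables and figures used Python 3.11.15. Named genes were members called by limma, those with the largest and smallest difference per complex and pair, a list of subunits fixed by role, up to 6 genes whose probe sets disagree, and up to 3 genes per other list and effect. Members and lists were chosen with earlier results of these data known. Alternatives were another floor, other scalings, other probe set filters, other fold limits and other priors. Further ones were the mean in place of the median, and Ndufa4 put to complex IV with the assembly factors left out.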

Additional observations from a re-analysis of the deposited data

Results flagged for a closer look

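One probe set of Uqcr10, a small subunit of complex III, differed by diet in opposite directions under the 2 injections. The high-fat minus low-fat difference was -0.27 log2 with clodronate (9.35 on the high-fat and 9.62 on the low-fat array) and 0.38 with PBS (9.74 on the high-fat and 9.36 on the low-fat array), and the clodronate value minus the PBS value was -0.64. Each side rests on 1 pooled array per group, so the difference between the injections was not tested. The other 2 Uqcr10 probe sets had diet differences of -0.21 and -0.18 log2 with clodronate and of -0.067 and -0.10 log2 with PBS, both in 1 direction.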

How the results depend on the processing

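No paired analysis was possible because each group is 1 array with no shared replicate, and for the same reason no replicate could be left out. Under the alternatives, 218 of 240 median differences moved by less than 1 SD. That SD was taken over 2 medians, that of the pair itself and that of the same contrast under the other diet or injection. It is not a spread over the members. It is wide where the 2 medians lie apart, so a median could change sign and still move by less than 1 SD. With centred arrays the member median for clodronate on the low-fat diet did so. The count of 218 is therefore no measure of stable signs. Members called by limma were 0 in all 11 settings, of which the one without a floor repeats the main fit, since that fit used no floor. The smallest adjusted p of limma was 0.958 to 1 for clodronate and 0.271 to 0.783 for diet. The member median minus that of all probe sets was -0.050 for clodronate on the high-fat diet and -0.064 for diet with clodronate at a floor of 5, and for diet with clodronate it was -0.033 after quantile normalization and -0.053 over all probe sets. Centring each array on its median moved the median over all probe sets for diet with clodronate by the most, to 0.017 from -0.085. With centred arrays, clodronate on the low-fat diet gave medians of -0.065 in complex II, -0.039 in complex III and -0.033 in complex IV, and clodronate on the high-fat diet gave 0.010 over all members and 0.031, 0.022, 0.002 and 0 in complexes II, III, IV and V. Diet with clodronate then gave 0.030 over all members and 0.027, 0.112, 0.031, 0.024 and 0.056 in complexes I to V. Quantile normalization gave -0.031 and -0.029 in complexes II and III for clodronate on the low-fat diet, -0.005 in complex II for clodronate on the high-fat diet, and 0.039 in complex II and -0.023 in complex V for diet with clodronate. The mean in place of the median gave complex II -0.072 for clodronate on the high-fat diet and -0.032 for diet with clodronate, and keeping all probe sets gave complex IV -0.018 for diet with clodronate. At 2-fold, 0 members were higher or lower in any pair, and at 1.5-fold 0 were higher in any pair, 0 were lower for clodronate on the high-fat diet and 0 for diet with clodronate. The following counts at 1.2-fold were chosen after seeing the data. Centred and quantile-normalized arrays gave 3 and 2 members lower for clodronate on the low-fat diet, 5 and 5 higher for clodronate on the high-fat diet, and 0 and 0 lower for diet with clodronate. Without probe sets of the x_at and s_at types, 1 member was higher and 1 lower for clodronate on the high-fat diet. The cause of these shifts was not tested.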

Other observations

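Among the genes listed beside the members, those of the citric acid cycle and of assembly held a few larger diet differences that did not pass the adjusted limma test. Nubpl, which delivers iron-sulphur clusters to complex I, had a mean diet difference of 0.48 log2 (limma adjusted p = 0.339), with 7.12 and 7.03 on the high-fat clodronate and PBS arrays, against 6.59 on both low-fat arrays. Acad9, an assembly factor of complex I, had 0.47 log2 (limma adjusted p = 0.281), with 7.82 and 7.63 on the high-fat clodronate and PBS arrays, against 7.37 and 7.13 on the low-fat ones. Sco1, a copper chaperone of complex IV, had a diet difference in the other direction, -0.46 log2 with values below 4 set to 4 (limma adjusted p = 0.467 on the values as deposited), with 3.78 and 4.50 on the high-fat clodronate and PBS arrays, against 4.67 and 4.75 on the low-fat ones. Mrpl45, of the mitochondrial ribosome, had 0.36 log2 (limma adjusted p = 0.443). Slc25a4, the adenine nucleotide carrier isoform known from heart and muscle, had -0.42 log2 (limma adjusted p = 0.545) by an x_at probe set. That probe set was near the working limit, with 4.34 and 4.73 on the high-fat clodronate and PBS arrays, against 4.98 and 4.92 on the low-fat ones. The other Slc25a4 probe sets analysed had mean diet differences of -0.25 and -0.16 log2.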
